A study of Oryctolagus cuniculus with 8 samples.

Results

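The genes described here are 5 genes of early inflammation, measured by 14 probes on each of 8 arrays of rabbit cells: interleukin 1 alpha (IL1A), the interleukin 1 receptor antagonist (IL1RN), interleukin 6 (IL6), serum amyloid A3 (SAA3) and the lipopolysaccharide co-receptor CD14. Their probes were all the probes, apart from controls, whose RefSeq accession in the array files belongs to these genes, 4 for IL1A, 3 for IL1RN, 5 for IL6 and 1 each for SAA3 and CD14, of 43603 probes on the array and of 680 genes that could be named. The samples, all from Dutch rabbits, were 4 arrays of induced pluripotent stem (iPS) cells, 2 of embryonic stem (ES) cells and 2 of somatic cells. The iPS cells, which are body cells reprogrammed to a state like that of ES cells, were 1 line made from liver cells (L1) at passages 23 (late) and 7 (early) and 1 line made from stomach cells (S1) at passages 22 (late) and 6 (early). The ES cells were the lines rdES4 and rdES2-1, and the somatic cells were 1 culture of liver cells and 1 of stomach cells, named by tissue. Stem cell medium was used for iPS and ES cells and another medium for liver and stomach cells, so medium and cell state cannot be told apart. The labels used here do not give the reprogramming factors, and nothing in them says that lines or cultures came from separate animals, so p-values measure the spread between these samples, which may be partly technical.

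IL1A is a cytokine held inside cells in a form that is already active and is known as an alarm signal when cells are damaged. It binds the interleukin 1 receptor and switches on NF-kappaB target genes, while IL1RN occupies the same receptor without activating it. IL6 signals through gp130 and STAT3 and is the classical inducer of the acute phase response in liver, in which serum amyloid A proteins rise in blood. SAA3 is a form of serum amyloid A that in rabbit is known to be made by synovial fibroblasts and other cells outside the liver. CD14 hands bacterial lipopolysaccharide to the receptor pair TLR4 and LY96 and is used as a marker of monocytes and macrophages.

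The level of a probe is given as the log2 signal minus the 75th percentile of its array, so that 0 is that percentile and 1 unit is a 2-fold step. The 75th percentile lay at 296.7 to 341.0 intensity units on iPS arrays, 273.8 to 310.1 on ES arrays and 154.4 to 163.4 on somatic arrays, and 62.4 to 64.0%, 64.0 to 64.7% and 57.8 to 58.4% of probes were well above background in these groups by the mark in the deposited files. POU5F1, the pluripotency transcription factor also called OCT4, lay at 7.08 to 7.62 on iPS arrays, 6.69 and 7.14 on ES arrays, and -3.62 and -3.46 in somatic cells. It passed the background mark on all 8 arrays. PODXL, the other named pluripotency marker, lay at 7.29 to 7.32 on iPS arrays and 7.31 and 7.63 on ES arrays. In somatic cells PODXL lay at 2.34 in liver cells and, below the mark, at -4.54 in stomach cells. Of 6 named hepatocyte markers, albumin (ALB) did not pass the background mark on any array, while TF, APOE, HP, HPX and RBP4 passed it on all 8, pluripotent arrays included. Of 3 named gastric markers, the acid pump subunit ATP4B did not pass the mark on any array, the pepsinogen gene PGC passed it on all 8 and ATP4A on 7. The array on which ATP4A did not pass was that of liver cells (-4.66), while stomach cells passed (-4.40). By this mark neither set told the labelled tissue from the other cells, since ATP4A also passed on every iPS and ES array. By level, APOE, HP, HPX and RBP4 were higher in stomach than in liver cells, and TF was higher in liver cells. The summed linear level of the hepatocyte markers was 3.43 to 4.04 times the 75th percentile on iPS arrays. It was 4.38 to 5.93 on ES arrays and 4.65 to 20.0 in somatic cells. Both cultures held the fibroblast and mesenchyme markers DCN, MGP, CAV1 and MMP2 well above background, 4 of the 4 that could be named of 11 listed. DCN passed the mark in somatic cells alone, MGP on 7 arrays, and CAV1 and MMP2 on all 8. Their summed linear level was 2.08 to 3.14 times the 75th percentile on iPS arrays, 1.88 to 2.21 on ES arrays and 105.9 to 198.3 in somatic cells. Of 15 listed markers of monocytes and macrophages only CD86 and CYBB could be named, and neither was well above background on any array, with a summed level of 0.00993 to 0.0172 on iPS arrays, 0.0109 to 0.0178 on ES arrays and 0.0455 to 0.0475 in somatic cells. The part of these cell types in the results below was not tested.

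All 5 genes were higher in the cultured somatic cells than in iPS and ES cells, where IL6 and SAA3 were not detected above background. Of the 14 probes, 13 passed the background mark on both arrays of at least 1 group and entered the test, and 10 of these passed that filter through the somatic group alone, so their difference is partly fixed by the filter. In iPS cells against somatic cells all 13 tested probes fell, where 32.4% of all 28848 tested probes did (limma, adjusted p under 0.05), and in ES cells against somatic cells all 13 fell, against 29.7% of all tested probes. The 3 probes measured on all 8 arrays, those of CD14 and IL1RN, all fell in both comparisons, where 35.6% (iPS) and 33.3% (ES) of the 22111 probes measured on all arrays fell. The median difference over the 13 probes was -7.93 between iPS and somatic cells, against 0.016 over all tested probes. Between ES and somatic cells it was -7.72, against 0.067 over all tested probes. These medians too are partly fixed by the filter, and the 13 probes stand for 5 genes, so they are not separate evidence. Both comparisons used the same somatic arrays, and the 5 genes were chosen with earlier results of these data known. In cultures measured as a whole, fewer cells that express a gene and less RNA per cell cannot be told apart.

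**Figure D1:**
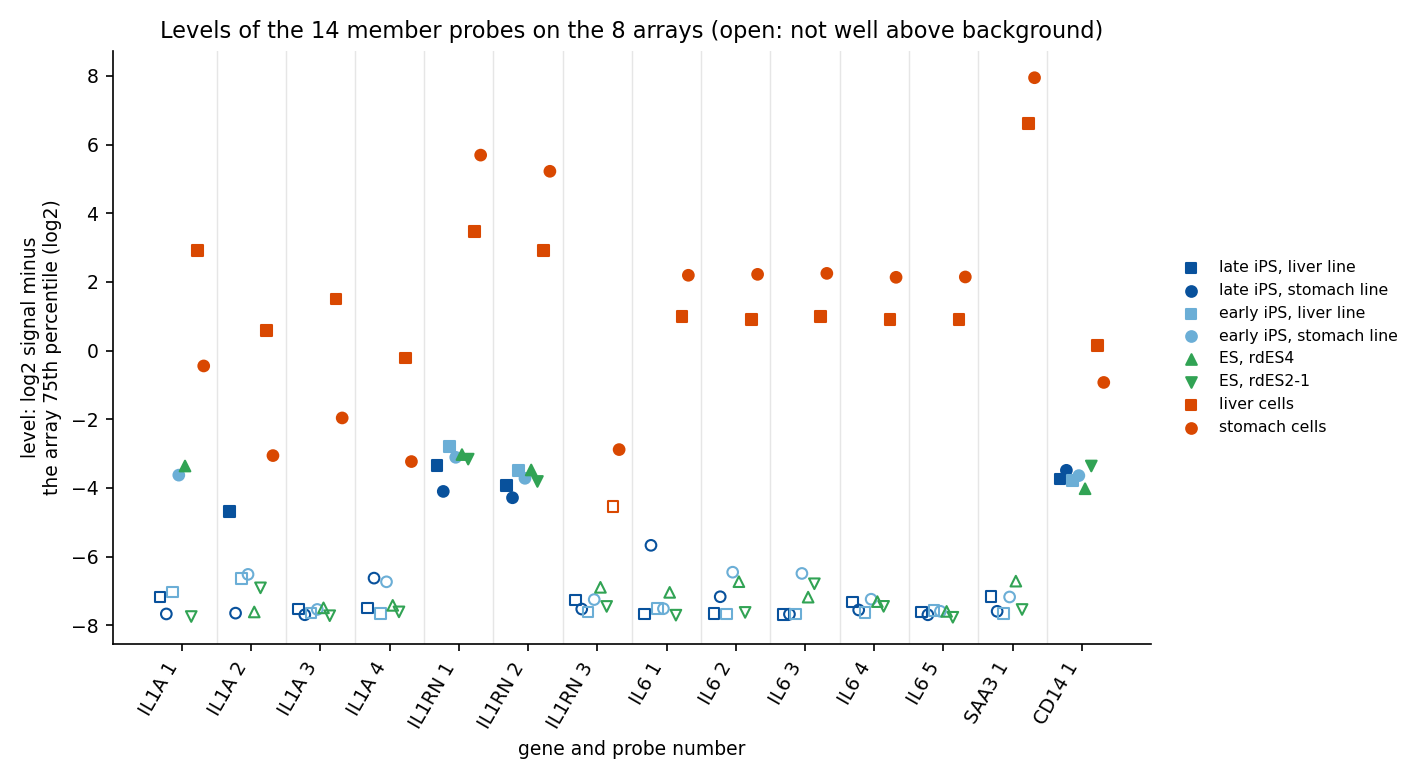
Level of each of the 14 probes (log2 signal minus the 75th percentile of the array) on each of the 8 arrays, with late iPS, early iPS, ES and somatic arrays from left to right in each column. Filled points are well above background and open points are not, and the somatic arrays stand above all others in every column. IL6 and SAA3 have only open points in iPS and ES cells.

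Interleukin 1 alpha was the gene with the widest spread between the somatic cultures. Its brightest probe (probe 1) lay at -7.18 and -7.67 in late iPS cells of liver and stomach origin, -7.03 and -3.63 in early iPS cells of liver and stomach origin, and -3.36 and -7.75 in rdES4 and rdES2-1 cells. In somatic cells it lay at 2.91 in liver cells and -0.45 in stomach cells. The early stomach iPS and rdES4 arrays were the only pluripotent arrays on which this probe was well above background, and both stayed below the stomach cells. Probe 1 averaged -6.38 ± 1.03 in iPS lines and 1.23 ± 2.38 in somatic cells (SD, n = 2 each, passages of a line averaged), a difference of -7.61 ± 1.80 (SE, adjusted p = 0.0152). When arrays below the background mark were set to the dimmest signal that passed it, the difference was -6.18. In ES cells, which averaged -5.56 ± 3.10, probe 1 was lower than in somatic cells by a log2 difference of -6.79 ± 1.80 (adjusted p = 0.0231).

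The other 3 IL1A probes read the same way, with the somatic arrays above every iPS and ES array. Probe 2 was well above background on 1 pluripotent array, late liver iPS cells, at -4.68, while the other iPS arrays and both ES arrays lay at -7.65 to -6.52 and somatic cells at 0.58 (liver) and -3.06 (stomach). Its log2 difference was -5.13 ± 1.25 in iPS cells (adjusted p = 0.0170). Probes 3 and 4 were not well above background on any iPS or ES array and fell in iPS cells. Their bounds were at least 35.4-fold for probe 3 and at least 12.5-fold for probe 4. Their measured differences were -7.37 and -5.40 (adjusted p = 0.00322 and 0.00660). Against somatic cells, the bounds in ES cells were at least 18.7-fold lower for probe 2, at least 37.7-fold for probe 3 and at least 13.4-fold for probe 4. The measured differences were -6.02, -7.38 and -5.79 (adjusted p between 0.00329 and 0.0103). No more than 1 of the 4 IL1A probes was well above background on any iPS or ES array, and the probe that was differed between the arrays: probe 1 on rdES4 and early stomach iPS cells, and probe 2 on late liver iPS cells. On both somatic arrays all 4 were.

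The calls of IL1A probes 1 and 2, and the sizes of all 4 probes, rested on few arrays. The mean of the 4 probes passed, at -6.38 in iPS and -6.50 in ES cells (limma, adjusted p = 0.00550 and 0.00535). Against stomach cells alone the bounds in iPS cells were at least 10.7-fold for probe 3 and at least 4.41-fold for probe 4, and against liver cells alone at least 117.7-fold and at least 35.6-fold. In ES cells those of probes 2, 3 and 4 were at least 5.30-fold, 11.3-fold and 4.70-fold against stomach cells and at least 65.9-fold, 125.3-fold and 37.9-fold against liver cells. Without the liver cell array the difference of probe 1 was -5.93 in iPS cells and -5.11 in ES cells and no longer passed (adjusted p = 0.0560 and 0.0837), nor did it in ES cells without rdES2-1 (-4.60, adjusted p = 0.0835). Probe 2 missed the threshold in iPS cells with the slide as a block (-5.15, adjusted p = 0.0886) and in ES cells without rdES4 (-5.67, adjusted p = 0.0592).

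The receptor antagonist IL1RN was measured on all 8 arrays by 2 of its 3 probes. Probe 1 lay at -3.35 and -4.10 in late iPS cells of liver and stomach origin, -2.79 and -3.11 in the early iPS cells, -3.03 and -3.16 in rdES4 and rdES2-1 cells, 3.48 in liver cells and 5.70 in stomach cells. Its lowest somatic array was thus above every pluripotent array, and stomach cells stood highest. Probe 2 had the same order of groups, at -4.29 to -3.48 over the 6 iPS and ES arrays, 2.92 in liver cells and 5.22 in stomach cells. Both fell in iPS cells, with log2 differences of -7.92 ± 0.73 for probe 1 and -7.93 ± 0.75 for probe 2 (SE, adjusted p = 7.06e-04 and 7.50e-04), which is 242.9-fold and 244.2-fold lower. The log2 differences in ES cells were -7.68 and -7.72 (adjusted p = 7.74e-04 and 8.15e-04). Since the somatic cultures differed, the iPS difference of probe 1 was -9.03 without liver cells and -6.81 without stomach cells.

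The third IL1RN probe was well above background in stomach cells alone, at -2.88, and did not enter the test. It lay at -4.54 in liver cells, below the background mark, and at -7.62 to -6.90 on the iPS and ES arrays. With no filter on dim probes its difference was -3.70 ± 0.58 in iPS cells and -3.46 ± 0.58 in ES cells (adjusted p = 0.00651 and 0.00775). The 3 probes therefore agreed on the direction, and the dim probe gave the smallest size.

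IL6 was not well above background with any of its 5 probes on any iPS or ES array. In somatic cells the 5 probes lay within 0.100 of each other in liver cells, at 0.90 to 1.00, and within 0.114 in stomach cells, at 2.14 to 2.25. On the iPS and ES arrays they lay at -7.77 to -5.67, the highest being the brightest probe on the late stomach iPS array, where it was still below the background mark. The brightest probe had an intensity of 1.66 and 5.81 units in late iPS cells of liver and stomach origin, 1.86 and 1.66 in the early iPS cells, 2.08 and 1.48 in ES cells, 326.6 in liver cells and 706.6 in stomach cells. All 5 probes were lower in iPS cells, with bounds of at least 119.0-fold to at least 127.9-fold. The measured differences were -9.14 to -8.69 (adjusted p between 1.38e-04 and 3.04e-04), their size set by signals near 0 in iPS cells. All 5 were lower in ES cells, with bounds of at least 126.7-fold to at least 136.1-fold (measured differences -9.21 to -8.61, adjusted p between 1.34e-04 and 3.07e-04). With dim values set as before, the iPS differences of the IL6 probes were -7.00 to -6.90, and between 117 and 131 of the 28848 tested probes had a lower one. Against liver cells alone the bounds in iPS cells were 77.4-fold to 83.0-fold, and against stomach cells alone 182.3-fold to 197.3-fold.

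SAA3 had the lowest log2 difference of the 28848 tested probes in both comparisons, also with all dim values set to the dimmest signal that passed the background mark (-12.66 in iPS and -12.75 in ES cells). Its intensity was 2.39 and 1.53 units in late iPS cells of liver and stomach origin, 1.68 and 2.11 in the early iPS cells, 2.60 and 1.66 in rdES4 and rdES2-1 cells, 16034 in liver cells and 38164 in stomach cells. Its level was 6.62 in liver cells and 7.95 in stomach cells, and -7.66 to -6.72 on the iPS and ES arrays, none of which was well above background. SAA3 averaged -7.40 ± 0.02 in iPS lines, -7.13 ± 0.58 in ES lines and 7.28 ± 0.94 in somatic cells (SD, n = 2 each). The bound was at least 6464-fold lower for iPS cells (measured difference -14.68 ± 0.51 SE, adjusted p = 9.06e-05, its size set by signals near 0 in iPS cells) and at least 6881-fold lower for ES cells (-14.41 ± 0.51, adjusted p = 8.24e-05). No probe sequence was used here, so whether this probe also binds RNA of other serum amyloid A genes was not tested. In the RefSeq gene table, 2 protein-coding genes lie between SAA3 and LOC100009168, whose listed synonyms are SAA1 and SAA2. The single probe of LOC100009168 lay at -4.36 to -3.55 on the iPS and ES arrays, 0.01 in liver cells and 0.93 in stomach cells, and was lower in iPS cells by a log2 difference of -4.64 ± 0.36 (adjusted p = 4.64e-04).

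CD14 was measured on all 8 arrays and changed the least. It lay at -3.74 and -3.49 in late iPS cells of liver and stomach origin, -3.79 and -3.64 in the early iPS cells, -4.03 and -3.36 in rdES4 and rdES2-1 cells, 0.15 in liver cells and -0.93 in stomach cells. Both somatic cultures lay above all 6 iPS and ES arrays, which overlapped among themselves, and stomach cells were the lower of the somatic cultures. CD14 averaged -3.66 ± 0.14 in iPS lines, -3.69 ± 0.47 in ES lines and -0.39 ± 0.76 in somatic cells (SD, n = 2 each). Against somatic cells it was 9.69-fold lower in iPS lines (-3.28 ± 0.42 SE, adjusted p = 0.00196) and 9.88-fold lower in ES lines (-3.30 ± 0.42, adjusted p = 0.00193). Of its partners, LY96, which binds lipopolysaccharide together with TLR4, differed by -0.64 ± 0.17 in iPS cells (adjusted p = 0.0235). Without scaling between arrays the median of all tested probes moved from 0.016 to 1.03, by more than this difference. The direction of LY96 therefore depends on the scaling. TLR4 itself was well above background in early stomach iPS cells (-4.98) and stomach cells (-4.05) alone and was not tested. LY96 and TLR4 were picked from the list after their values were seen.

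**Figure D2:**
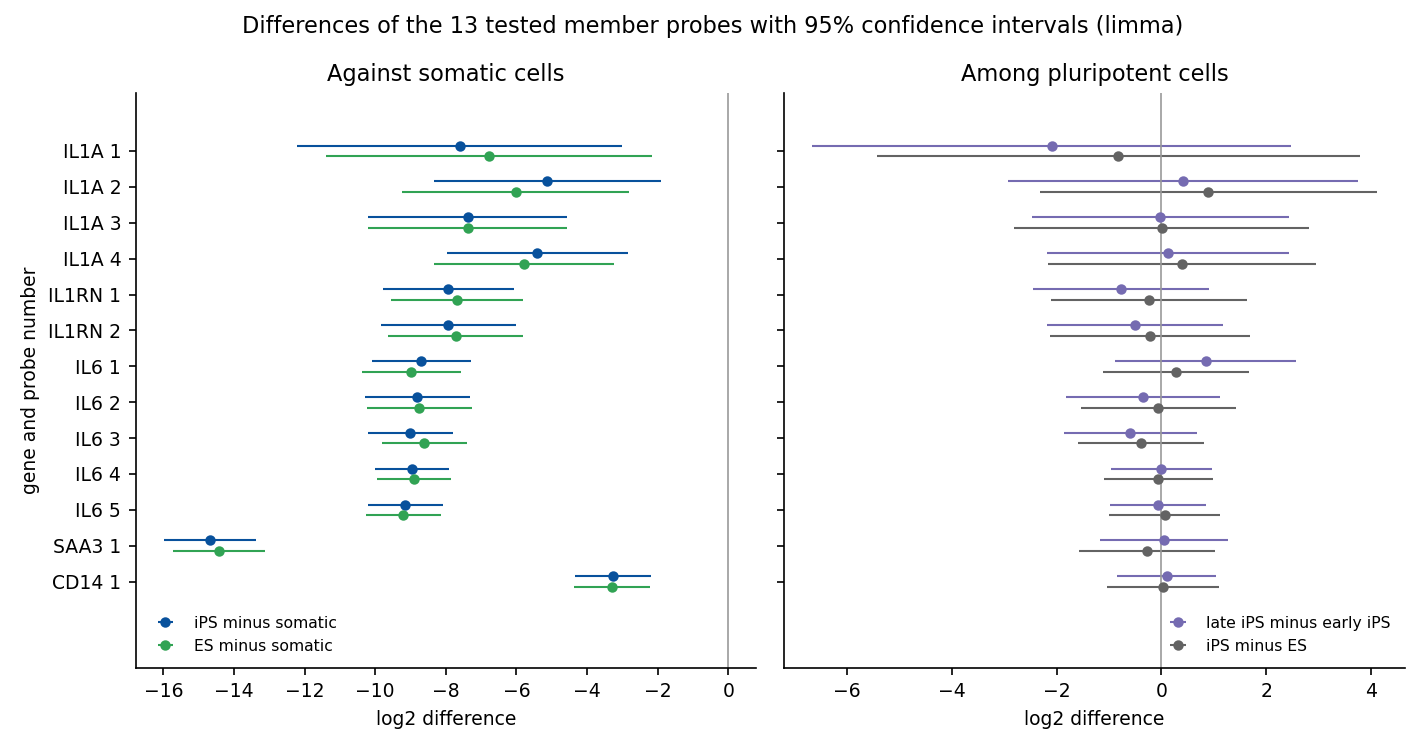
Log2 differences of the 13 tested probes with 95% confidence intervals from limma, for iPS and ES cells against somatic cells (left) and for late against early iPS cells and iPS against ES cells (right). Every interval on the left lies below 0, from SAA3 at -14.68 to CD14 at -3.28 in iPS cells, and every interval on the right spans 0.

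For the 5 genes the sizes, not the directions, depended on how background and scale were handled. With normexp background correction, which pulls dim signals together, the iPS differences of the brightest probes were -9.39 for SAA3, -4.10 for IL6, -6.14 for IL1RN, -3.77 for IL1A and -1.80 for CD14, and the ES differences -9.26, -4.00, -5.99, -3.57 and -1.77 in the same order, all still past the threshold. With no scaling between arrays, which moved the median of all tested probes to 1.03 in iPS and 0.94 in ES cells, CD14 differed by -2.26 in iPS and -2.43 in ES cells, IL1RN by -6.91 and -6.81, IL1A by -6.60 and -5.91, IL6 by -7.68 and -8.10 and SAA3 by -13.67 and -13.54. Within arrays of 1 slide, where scan day was also shared, the 13 probes differed by -13.77 to -3.89 in late liver iPS cells against liver cells, by -14.28 to -3.94 in early liver iPS cells against liver cells, by -13.33 to -4.18 in rdES4 against liver cells and by -15.49 to -2.43 in rdES2-1 against stomach cells. Both stomach iPS arrays lay on another slide than the stomach cells but shared their scan day, with differences of -15.54 to -2.56 (late) and -15.13 to -2.71 (early).

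The second question was whether any of these genes separated iPS from ES cells. None of the 13 probes passed, nor did any of the 28848 tested probes (0% called by limma), and 0 of the 13 against 2136 of all had an unadjusted p under 0.05. CD14 differed by 0.03 between iPS and ES cells (95% confidence interval -1.05 to 1.11) and the IL1RN probes by -0.24 (-2.11 to 1.62) and -0.21 (-2.13 to 1.70). For these 3 probes, the ones measured on every array, the intervals leave room for differences of about 1 to 2 log2 units. The interval of IL1A probe 1, from -5.44 to 3.79, was the widest of the 13. IL6 and SAA3 were below background in both groups and gave no fold.

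The third comparison set late against early passage within the iPS cells. None of the 13 probes passed, where 8 probes of all did (0.0277% called by limma, and 0 probes with the line as a replicate block), and 0 of the 13 against 2414 of all had an unadjusted p under 0.05. IL1RN probe 1 was lower in late than in early cells of both lines, -3.35 against -2.79 in the liver line and -4.10 against -3.11 in the stomach line, but the difference of -0.77 did not pass (95% confidence interval -2.46 to 0.91, adjusted p = 0.837; with the replicate block -2.63 to 1.08, adjusted p = 0.843). Probe 2 ran the same way in both lines, by -0.44 in the liver line and -0.57 in the stomach line (mean -0.50, -2.18 to 1.18). CD14 differed by 0.10 (-0.85 to 1.05). IL1A probe 1 was not well above background in late stomach iPS cells (-7.67) but was in early ones (-3.63), and IL1A probe 2 in late liver iPS cells (-4.68) and not in early ones (-6.63), each on a single array.

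The liver and stomach cultures, 1 array each and so without a replicate check, split the 5 genes. The arrays lay on different slides and scan days, so culture, slide and scan day cannot be told apart. Probes of 1 gene are not separate evidence. All 13 probes that were well above background in both cultures differed at least 2-fold between them, 5 higher in liver cells and 8 higher in stomach cells, against 3.37% and 3.25% of the 23985 probes measured in both. The IL1A probes were higher in liver cells by 3.01 to 3.64 log2 units, 8.08-fold to 12.4-fold, a distance that 0.271 to 0.525% of all measured probes reached in either direction. CD14 was 2.11-fold higher in liver cells. IL1RN was lower in liver than in stomach cells by log2 differences of -2.22 and -2.30, the 5 IL6 probes by -1.31 to -1.19 and SAA3 by -1.33. The agonist IL1A and the antagonist IL1RN thus stood in opposite order in the 2 cultures. Between the 2 genes lie 6 protein-coding genes in the RefSeq annotation.

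**Figure D3:**
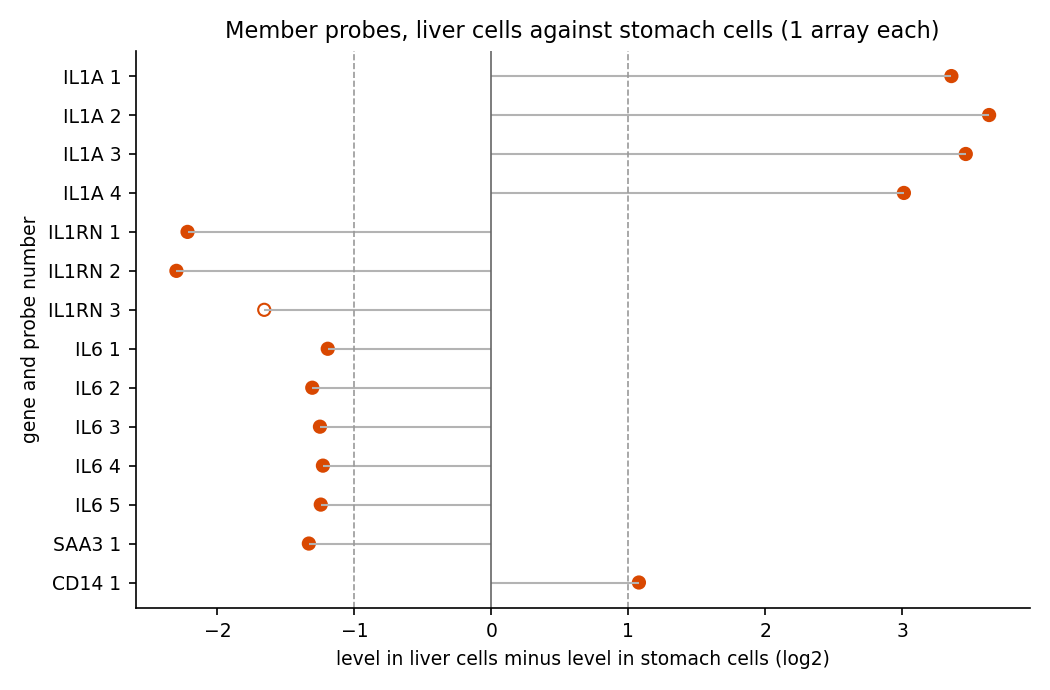
Level in liver cells minus level in stomach cells (log2) for the 14 probes, 1 array each; dashed lines mark 2-fold. The open point is the IL1RN probe that was not well above background in liver cells; the 4 IL1A probes and CD14 lie to the right, higher in liver cells, and the other 9 probes to the left.

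The order of the groups was the same in every gene on the measured scale, iPS and ES cells together below both somatic cultures. Among pluripotent arrays the order differed from gene to gene, and none of the differences between late and early iPS or iPS and ES cells passed the test. Levels of different genes are not ranked, since each probe has its own response.

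The surrounding pathway was read from a list of 99 symbols of cytokines, receptors, signalling proteins, acute phase proteins and inflammatory targets. Some symbols name the same gene, as IL8 and CXCL8 do. Of the listed genes 26 could be named on the array and 16 were tested. The list was chosen with earlier results of these data known, so its counts describe it and are not a test of it. IL18 and TLR3 passed the filter through the somatic group alone. In iPS against somatic cells 12 of the 16 fell, beside 32.4% of all tested probes, TF rose and 3 did not pass (limma), with a median of -3.60 against 0.016 over all tested probes. In ES against somatic cells 11 fell, beside 29.7% of all tested probes, TF rose and 4 did not pass, with a median of -3.59 against 0.067. LY96 is among those that fell, and its direction depends on the scaling, as given above. Each gene was read from its brightest probe. CXCL8 passed in iPS cells (-2.90, adjusted p = 0.0212) and not in ES cells (-1.76, adjusted p = 0.0949, limma). Its 6 other tested probes were also lower in iPS cells, by -10.36 to -2.97. The 8 genes with the strongest statistic all fell. In iPS cells the differences were -10.81 ± 0.22 for GRO-A, a chemokine that attracts neutrophils, -8.51 ± 0.23 for PTGS2, the inducible cyclooxygenase of prostaglandin synthesis, and -9.40 ± 0.54 for CCL2, which attracts monocytes (SE, adjusted p = 6.24e-05, 7.10e-05 and 2.26e-04). VCAM1, an adhesion molecule that leukocytes bind, differed by -9.72 ± 0.48 (adjusted p = 1.72e-04). VCAM1 was measured in the late iPS cells alone among pluripotent arrays (-3.97 and -3.20), and GRO-A in the early iPS cells alone (-4.11 and -3.79). For IL18, a cytokine of the interleukin 1 family, the bound was at least 78.2-fold lower for iPS and at least 83.3-fold lower for ES cells. Its measured differences were -7.95 and -7.75 (adjusted p = 1.44e-04 and 1.49e-04). The Toll-like receptors TLR2, which senses bacterial lipoproteins, and TLR3, which senses double-stranded RNA, fell too. TLR2 had a log2 difference of -3.22 ± 0.17 (adjusted p = 1.90e-04). For TLR3 the bound was at least 3.93-fold and the measured difference -3.98 ± 0.29 (adjusted p = 3.92e-04). IFNG, best known from lymphocytes, differed by -4.35 ± 0.20 (adjusted p = 1.40e-04) by a single tested probe. The SELE, CD3E and CD4 probes, markers of endothelium and T cells, were not well above background in somatic cells.

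**Figure D4:**
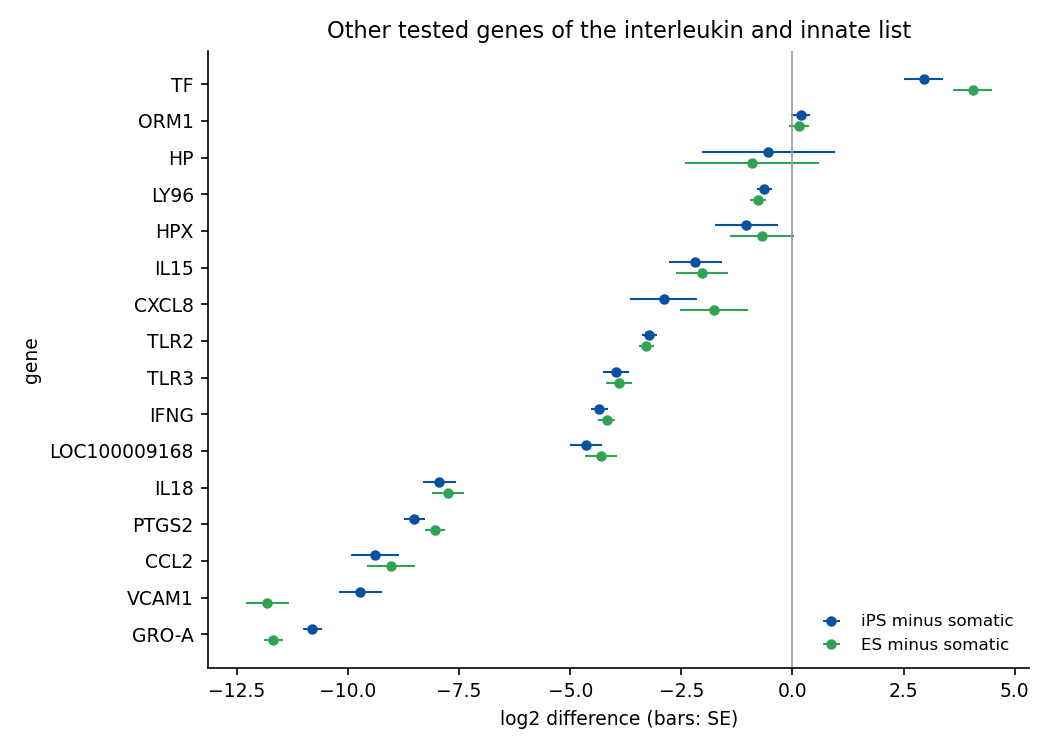
Log2 differences with SE of the 16 tested genes of the pathway list, for iPS and ES cells against somatic cells. TF is the only gene right of 0 by the test, at 2.95 in iPS cells, and GRO-A, VCAM1, CCL2, PTGS2 and IL18 lie farthest to the left.

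The acute phase proteins of the list did not move as 1 group. SAA3 and LOC100009168 fell, while the acute phase proteins ORM1, HP and HPX did not pass (0.18 ± 0.22, -0.54 ± 1.50 and -1.04 ± 0.72 in iPS against somatic cells). The gene that rose, TF, encodes transferrin, which carries iron in blood (2.95 ± 0.43, adjusted p = 0.00306). Its direction is not read here as for or against that of the others. HP lay at -2.53 in liver cells and 2.16 in stomach cells, so its somatic pair spanned the other groups. CRP was not well above background in either somatic culture. Among the cytokines nearest to IL1A and IL6, IL1B was well above background in liver cells (-2.09). It was not in stomach cells (-4.82) or on any iPS or ES array, and TNF was on no array. CRP, IL1B and TNF were each read from their brightest probe alone, and these probes were not tested. These genes were singled out after their values were seen.

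The named genes whose levels over the 8 arrays were most like those of each member were found by the root mean square difference of centred log2 levels, with dim values set to the dimmest signal that passed the background mark, among 679 other named genes. IL6 was nearest to IL18 (0.316) and ITIH3 (0.342), a plasma protein that binds hyaluronan. CD14 was nearest to MGST3 (0.253), a microsomal glutathione transferase, and ACE (0.272), the angiotensin-converting enzyme. IL1RN was nearest to IL6 (0.574) and LGALS3 (0.664), which encodes galectin 3. SAA3 was nearest to the matrix proteoglycan DCN (1.02) and to GRO-A (1.04), and IL1A to the protease CTSE (0.896) and to SPP1 (1.03), which encodes osteopontin. IL18, ACE, DCN and CTSE, and the members IL6 and SAA3, were above the background mark in somatic cells alone, so their 6 pluripotent values are the set floor. The distances of IL6 to IL18 and of SAA3 to DCN thus rest on the somatic arrays alone. All arrays entered this measure, and they fall into a low pluripotent and a high somatic set. CTSE and SPP1 were, like IL1A, higher in liver than in stomach cells (2.46 and 0.32 for CTSE, 1.96 and 0.01 for SPP1).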

How the data were processed

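Cy3-labelled total RNA of each sample was hybridised to a 1-colour array of its own, per the labels. Per the file headers, the deposited values are processed intensities from Agilent Feature Extraction 10.5.1.1, local background subtracted. The deposited series table holds log2 values. They matched log2 intensities scaled to the 75th percentile of each array and centred on each probe's median over the arrays (r of 1.00 on every array, column medians -0.042 to 0.342), so scale, centring and direction were settled, and the table served as an alternative.

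From the intensities, log2 signal minus the array's 75th percentile was computed over probes that are not controls. Of 45220 spots per array 1417 were controls and none was saturated. Spots marked uneven or outlying were dropped (19 probes lost) and spots of a probe were averaged. Probes well above background on both arrays of at least 1 group were tested (28848, of which 22111 on all 8 arrays), two-sided, with limma 3.58.1 in R 4.3.3 and Benjamini-Hochberg adjustment over all of them, at 0.05. The fit against somatic or ES cells used 6 units in 3 groups of 2, both passages of a line averaged, and late against early used the 8 arrays in 4 groups. "At least N-fold" sets the brighter group against a dim group whose arrays were set to the dimmest signal that passed the background mark. An adjusted p given with a bound is that of the measured difference. The number of arrays limits the precision. The test was tried on simulated data. These had the same spread for every probe and independent arrays, so they do not show its behaviour at the measured spread.

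Symbols came from a RefSeq gene table (mOryCun1.1), used for names and neighbours only: of 43603 probes, 2089 had a RefSeq accession and 1933 a symbol. Every probe of the 5 genes was described, the brightest standing for its gene. Of the pathway list the 8 tested genes with the strongest statistic were named. Counts of the fibroblast and macrophage marker lists are given above. For the other lists, named genes well above background in both somatic cultures were counted. They were smooth muscle 4 of 5, hepatocyte 5 of 6, gastric 1 of 3 and pluripotent 1 of 2. For erythroid, T and B cell, and endothelium lists they were 1 of 2, 0 of 2 and 0 of 1. Members and lists were chosen with earlier results of these data known. The files hold no mean signal column, so the normexp alternative used median signals with an offset of 50. Other alternatives were quantile normalization, no scaling, other filters, the mean of a gene's probes, slide or replicate as a block and leaving out each array.

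The replicate numbers of late and early iPS arrays pair the samples, since the labels give the same lines at both passages. The correlation of their deviations was 0.224. For other pairs of groups it was 0.011 to 0.148 (0.122 and 0.148 for late and early iPS with ES). There the numbers name samples, but every replicate 1 array lay on slide 1 and scan day 1 and every replicate 2 array on scan day 2, so number and scan day cannot be told apart.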

Additional observations from a re-analysis of the deposited data

How the results depend on the processing

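No difference of a gene's brightest probe against somatic cells changed direction under any alternative, and those of SAA3, IL6, IL1RN and CD14 passed the threshold in every alternative that tested them; SAA3, IL6 and IL1A had no value with probes well above background on all 8 arrays. The exceptions of IL1A are given with its values above. All 13 probes fell in iPS and in ES cells under every alternative except as follows: with probes well above background on all 8 arrays only 3 could be tested, and 3 of 3 fell in both comparisons; leaving out 1 array gave 13 to 13 in iPS cells and 12 to 13 in ES cells; with the slide as a block 12 fell in iPS cells; and with no filter 14 of 14 fell. Without the liver cell array IL1RN probe 3 entered the test and fell while IL1A probe 1 missed the threshold, which kept the count at 13. On slide 3, which held stomach iPS arrays only, that block leaves the iPS difference resting on the liver line. Over all probes, 19222 were called between iPS and somatic cells and 9916 with the slide as a block, and leaving out 1 array gave 18245 to 19282, and 15039 to 18461 in ES against somatic cells. Without scaling the median of all probes moved to 1.03 in iPS and 0.94 in ES against somatic cells, with normexp to -0.39 and -0.32, and with quantile normalization to 0.11 and 0.14. Higher and lower calls in iPS cells were 9864 and 9358, against 16900 and 3587 without scaling, 7551 and 15098 with normexp, and 9520 and 15118 without the filter. In ES cells they were 9873 and 8572, against 16559 and 3771, 7366 and 14199, and 9665 and 14520 under the same alternatives.

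Between iPS and ES cells 0 probes were called, 2 without scaling, and 0 to 35 when 1 array was left out. Between late and early iPS cells 8 were called, and 0 with no filter, with probes on all 8 arrays, with dim values raised or with the slide as a block, and 0 to 101 when 1 array was left out. With the replicate block, which pairs the passages of a line, 0 probes were called. The replicate block changed no call of the 5 genes: 13 of 13 still fell against somatic cells in iPS and in ES cells. No member passed in either comparison among pluripotent cells under any alternative. Signal over background limits what can be said of IL6, SAA3 and most IL1A probes in iPS and ES cells, where only bounds are available.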
